A study of Mus musculus with 8 samples.

Results

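The 10 neurotransmitter identity genes measured here were those for the enzymes and transporters by which a neuron makes, packages or takes back its transmitter. They were chosen by name from the 36317 gene symbols of the table. GABA was represented by Gad1, Gad2 and Slc32a1, glycine by Slc6a5, glutamate by Slc17a6 and Slc17a7, acetylcholine by Chat, Slc18a3 and Slc5a7, and the catecholamines by Th. RNA of dissected mouse embryonic nervous tissue was sequenced in bulk in 8 libraries, 2 in each of 4 groups. The first group was forebrain at embryonic day (E) 15.5 from EED-cKO embryos, in which the knockout of Eed depends on Sox1-Cre, a recombinase driven from a gene of the early neural plate. It was compared with wild-type (wt) forebrain at E15.5. The other pair was wt spinal cord at E13.5 and wt forebrain at E13.5. The labels list no treatment, and it is not stated in the labels whether a group's 2 libraries derive from different embryos or from a pool. The p-values therefore cover only the spread between libraries, which may be technical.

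A neuron that uses GABA makes it from glutamate with the glutamate decarboxylases GAD67 (Gad1) and GAD65 (Gad2), and loads it into vesicles with VGAT (Slc32a1), which also loads glycine. GlyT2 (Slc6a5) takes glycine back into glycinergic terminals, which lie mainly in spinal cord and hindbrain. Glutamatergic neurons load vesicles with VGLUT1 (Slc17a7), the form of most cortical and hippocampal neurons, or VGLUT2 (Slc17a6), the form of most thalamic, hypothalamic, brainstem and spinal neurons. Cholinergic neurons, such as motor neurons, need choline acetyltransferase (Chat), the vesicular transporter VAChT (Slc18a3) and the choline transporter CHT1 (Slc5a7), and tyrosine hydroxylase (Th) is the first enzyme of catecholamine synthesis. EED belongs to the core of PRC2, the Polycomb complex that puts a repressive methyl mark on histone H3 and is known to sit at developmental genes whose promoters are rich in the dinucleotide CG.

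Values were RPKM (reads per kilobase of gene, scaled to the reads mapped), given to 0.1, and read depth is unknown. The RPKM of all rows summed to 761647 to 843296 per library at E15.5 and 378294 to 397320 at E13.5, so levels were tested only within an age. In the 4 E15.5 columns the gene names had to be reassigned to alphabetical order, which moved the row of 6 members (Slc32a1, Slc6a5, Slc17a6, Slc17a7, Slc18a3 and Slc5a7) and left that of Gad1, Gad2, Chat and Th. Over 373 solute carrier genes, the correlation of wt forebrain at E15.5 with wt forebrain at E13.5 was 0.94 in that order and -0.023 in the deposited order, and 0.13 to 0.22 with the names shifted by 1 or 2 rows. In the deposited order the row named Slc17a6 would read 2.5 and 2.2 RPKM in EED-cKO forebrain, against 2.0 and 1.7 RPKM in wt E15.5 forebrain. Eed itself averaged 10.3 ± 0.424 RPKM in EED-cKO forebrain and 26.9 ± 1.48 RPKM in wt E15.5 forebrain (SD, n = 2 each; log2 change -1.30 ± 0.085 SE, adjusted p = 8.65e-05). Each change below is the difference of group means of log2(RPKM + 1), which understates the change of low genes, with its standard error and a Benjamini-Hochberg adjusted p from limma over all 17022 genes tested, and a gene was called at an adjusted p under 0.05. A two-sided exact permutation test of 2 libraries against 2 cannot give a p below 0.333, so every call rests on the spread that limma shares across genes and libraries.

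Markers of region and of other cell types moved with these comparisons. The 7 forebrain markers summed to 169.3 and 145.9 RPKM in EED-cKO forebrain, against 454.4 and 437.9 RPKM in wt E15.5 forebrain, with 1 called higher and 5 lower. They summed to 1.1 and 1.2 RPKM in wt spinal cord, against 412.6 and 411.6 RPKM in wt E13.5 forebrain. The 6 spinal cord and hindbrain markers summed to 42.2 and 36.8 RPKM in EED-cKO forebrain, against 0 RPKM in both wt E15.5 libraries, with each of the 6 called higher. All 10 mesenchyme markers, all 6 choroid plexus markers and all 5 tested eye markers of 9 were also called higher in EED-cKO forebrain. So were all 5 endothelium markers (median log2 change 0.56, and 3 to 4 called higher under the other scalings) and 5 of 6 microglia and macrophage markers (median log2 change 0.81). Without EED-cKO forebrain, the eye markers Vax2 and Mitf and the choroid plexus marker Kl would not have reached 1 RPKM in 2 libraries. That level was needed for a test, so nothing is read from the calls of Vax2, Mitf and Kl. Skeletal muscle markers summed to 5.8 RPKM in EED-cKO replicate 1 and 121.7 RPKM in replicate 2, against 5.2 and 6.7 RPKM in wt E15.5 forebrain. Of 5 red blood cell markers, 4 were not called in EED-cKO forebrain and 1, Hbb-bt, was called lower. Hbb-bt read 5.9 and 8.1 RPKM in EED-cKO forebrain, against 395 and 547 RPKM in wt E15.5 forebrain, and the reason was not tested. The part of these cell types in the results below was not tested, and in bulk tissue fewer cells of a type and less RNA per cell cannot be told apart.

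The RefSeq promoters of 4 members are shown because the results turn on them: the pair of glutamate transporters, which moved in opposite directions, and the glycine and vesicular acetylcholine transporters, which were at or near 0 in wt E13.5 forebrain. Each runs from 250 bases before to 50 bases after the annotated start, in GRCm38.p6, 5′ to 3′ on the gene's strand, with CG dinucleotides in capitals. Slc17a6 is at chr7:51621580-51621879 on the plus strand, Slc17a7 at chr7:45163671-45163970 on the plus strand, Slc6a5 at chr7:49910049-49910348 on the plus strand, and Slc18a3 at chr14:32464801-32465100 on the minus strand.
Slc17a6: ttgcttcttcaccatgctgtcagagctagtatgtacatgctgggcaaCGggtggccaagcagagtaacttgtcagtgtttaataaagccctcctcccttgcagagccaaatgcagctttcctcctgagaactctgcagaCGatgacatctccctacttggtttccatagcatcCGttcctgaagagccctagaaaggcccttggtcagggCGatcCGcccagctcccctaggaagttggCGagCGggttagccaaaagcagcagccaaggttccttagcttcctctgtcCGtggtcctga
Slc17a7: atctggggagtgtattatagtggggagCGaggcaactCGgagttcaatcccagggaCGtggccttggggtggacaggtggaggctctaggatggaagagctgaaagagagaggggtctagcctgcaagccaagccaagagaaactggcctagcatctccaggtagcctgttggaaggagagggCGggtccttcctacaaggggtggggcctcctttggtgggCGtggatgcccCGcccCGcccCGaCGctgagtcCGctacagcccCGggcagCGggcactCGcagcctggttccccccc
Slc6a5: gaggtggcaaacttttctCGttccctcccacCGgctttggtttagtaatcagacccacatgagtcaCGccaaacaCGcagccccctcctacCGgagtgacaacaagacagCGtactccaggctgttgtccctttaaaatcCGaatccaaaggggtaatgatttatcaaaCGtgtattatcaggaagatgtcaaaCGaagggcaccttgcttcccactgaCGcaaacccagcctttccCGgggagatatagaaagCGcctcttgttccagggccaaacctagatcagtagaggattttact
Slc18a3: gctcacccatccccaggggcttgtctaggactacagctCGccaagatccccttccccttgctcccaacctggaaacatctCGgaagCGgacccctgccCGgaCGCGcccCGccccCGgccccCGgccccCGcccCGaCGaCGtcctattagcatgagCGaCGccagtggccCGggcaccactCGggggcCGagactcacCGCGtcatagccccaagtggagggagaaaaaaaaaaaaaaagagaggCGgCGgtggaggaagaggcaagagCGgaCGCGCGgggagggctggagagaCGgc
The window of Slc18a3 held 27 CG dinucleotides, that of Slc17a7 13, that of Slc6a5 12 and that of Slc17a6 8. All 10 members had a promoter in the table, where the median over 27025 genes was 7 CG dinucleotides, with quartiles at 3 and 20. The members' median was 13.5, with Gad1 at 21, Slc32a1 at 17, Th at 15, Gad2 at 14 and Chat at 10, and Slc5a7 was the lowest with 1. Slc17a6, which was higher in EED-cKO forebrain, and Slc17a7, which was lower, thus had 8 and 13 CG dinucleotides. The letters TATAAA, read on both strands, occurred in the windows of 2 members, Gad1 and Slc5a7, and in 14.2% of all promoters. CAGCTG occurred in that of 1 member, Chat, and in 16.1% of all, and TAATTA in 0 members and 5.32% of all. Each of the 3 words was searched by itself, and a match is a description of the window only.

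All 10 members were tested between EED-cKO and wt E15.5 forebrain, where 6 were called higher and 2 lower. Over all genes tested, 30.2% were called higher, 16.7% lower and 46.9% in either direction. The filter of 1 RPKM in 2 libraries was met by Slc6a5 and Slc5a7 only through EED-cKO forebrain and wt spinal cord, and by Chat only through wt spinal cord. The higher members were Gad1, Slc32a1, Slc6a5, Slc17a6, Slc18a3 and Slc5a7, and the lower ones Slc17a7 and Th. The values of EED-cKO and wt libraries did not overlap for 9 of the 10, against 70.3% of all genes tested. The members' median log2 change was 0.75, against 0.076 over all genes tested. Of all called genes 64.5% were higher, against 45.1% after quantile normalization, 45.4% after median ratio scaling and 50.8% after scaling to neuronal genes, which lowered the median change of all genes by 0.126, 0.114 and 0.118. Under each of these 3 scalings 6 members were called higher and 2 lower. With each library left out in turn, 6 to 7 members were called higher and 1 to 2 lower, with 7 higher and 1 lower without EED-cKO replicate 2, the library with muscle transcripts.

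**Figure D1:**
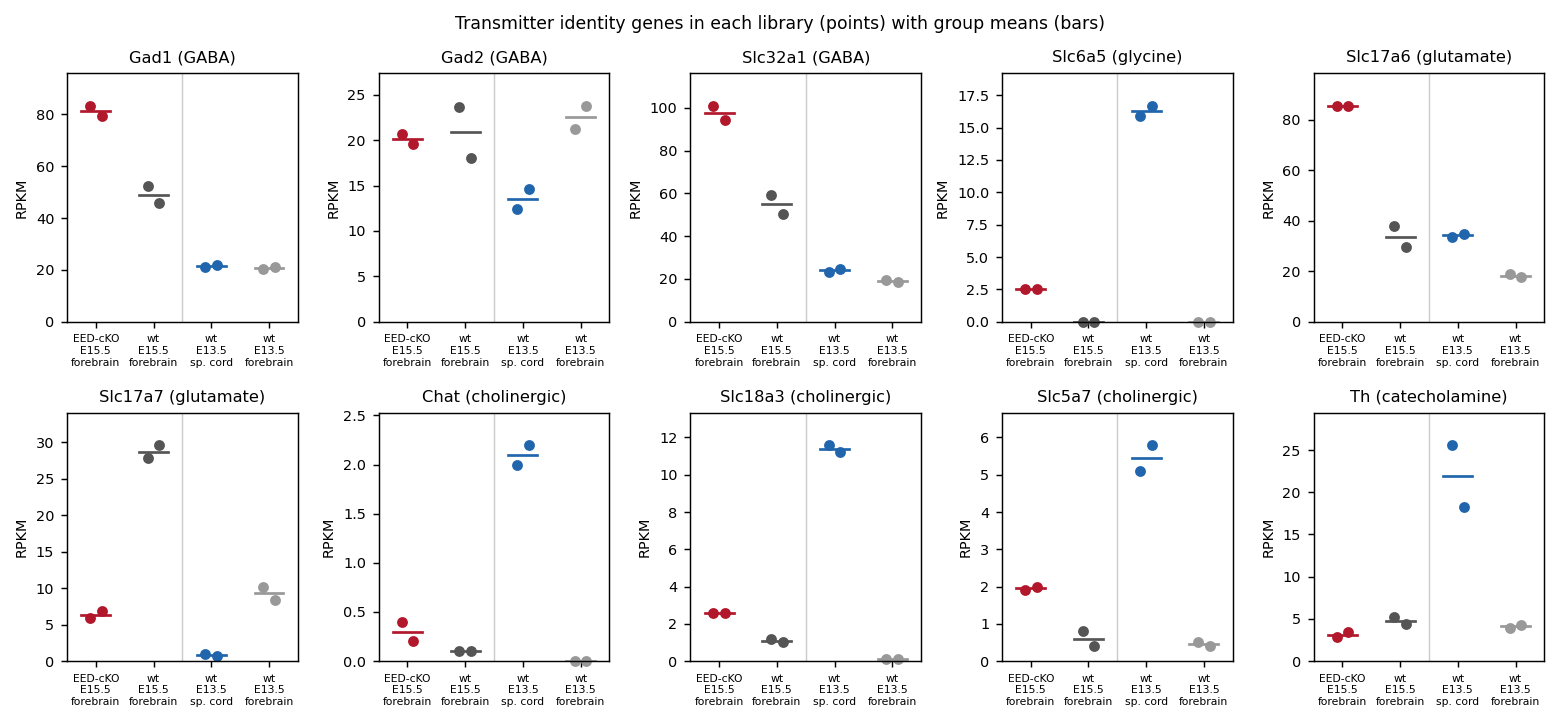
RPKM (linear axes, starting at 0) of each of the 10 genes in each of the 8 libraries, 1 panel per gene, with a point per library and a bar at the group mean. Slc17a6 is above 85 RPKM in both EED-cKO libraries and Slc17a7 is below 7 RPKM in them, while Slc6a5 is at 0 in all 4 wt forebrain libraries.

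In EED-cKO forebrain the GABA genes split, with Gad1 and Slc32a1 called higher and Gad2 not called. Gad1 read 83.4 and 79.4 RPKM in EED-cKO forebrain, against 52.5 and 45.7 RPKM in wt E15.5 forebrain. Both EED-cKO libraries were above both wt libraries, and the ratio of means was 1.66 (log2 change 0.72 ± 0.0771 SE, adjusted p = 0.000495). Slc32a1 read 101 and 94.5 RPKM in EED-cKO forebrain, against 59.2 and 50.5 RPKM in wt E15.5 forebrain. It too did not overlap between the groups (log2 change 0.83 ± 0.0857 SE, adjusted p = 0.000439). Gad2, whose product makes GABA mainly at nerve terminals, read 20.7 and 19.6 RPKM in EED-cKO forebrain, against 23.7 and 18.0 RPKM in wt E15.5 forebrain. These values overlapped (log2 change -0.035 ± 0.138 SE, adjusted p = 0.862), and the sign turned to 0.15 without wt E15.5 replicate 1. Gad1 made up 80.1% and 80.2% of the summed RPKM of both decarboxylases in EED-cKO forebrain, against 68.9% and 71.7% in wt E15.5 forebrain, a share that a scaling factor per library does not move.

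Gad1 (chromosome 2, 70553072 to 70602014, plus strand, GENCODE genes on GRCm38) overlaps the antisense gene Gad1os, and Slc32a1 (chromosome 2, 158610767 to 158615748, plus strand) overlaps the antisense gene Gm14205 by 911 bases. Reads did not record strand, so overlapping antisense transcripts cannot be told apart. Gad1os was listed at 1.5 and 1.6 RPKM in EED-cKO forebrain, against 0.7 and 0.3 RPKM in wt E15.5 forebrain. Gad2 lies elsewhere on chromosome 2, at 22622205 to 22693874 on the plus strand.

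All 7 other genes listed for GABA metabolism and transport were called higher in EED-cKO forebrain, against 30.2% of all genes tested. Their median log2 change was 0.71, against 0.076 over all genes tested. Slc6a12 read 1.6 and 1.4 RPKM in EED-cKO forebrain, against 0.7 and 0.9 RPKM in wt E15.5 forebrain. It passed the filter only through EED-cKO forebrain, so nothing is read from its call. Abat, the transaminase that breaks GABA down, read 59.2 and 62.6 RPKM in EED-cKO forebrain, against 30.5 and 21.2 RPKM in wt E15.5 forebrain (log2 change 1.23 ± 0.15 SE, adjusted p = 0.000825). Slc6a11, the GABA transporter GAT3 of astrocytes, read 58.7 and 61.9 RPKM in EED-cKO forebrain, against 31.7 and 23.4 RPKM in wt E15.5 forebrain (log2 change 1.12 ± 0.145 SE, adjusted p = 0.00106). Slc6a13, the GABA transporter GAT2 known from meninges, had a log2 change of 0.95 (adjusted p = 0.000899) in EED-cKO forebrain, where the mesenchyme markers were higher as well. None of these 3 genes overlapped between the groups, and 5 to 6 of the 7 were called higher under the other 3 scalings.

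Slc6a5 was present in EED-cKO forebrain and listed at 0 in wt forebrain of either age. It read 2.5 RPKM in both EED-cKO libraries, against 0 and 0 RPKM in wt E15.5 forebrain (adjusted p = 1.96e-05), and no fold is given against a group at 0. The gene (chromosome 7, 49910146 to 49963856, plus strand) passed the filter on low values only through EED-cKO forebrain and wt spinal cord. Slc6a9, the glycine transporter GlyT1 found mostly on glia, read 18.4 and 17.5 RPKM in EED-cKO forebrain, against 11.9 and 8.8 RPKM in wt E15.5 forebrain (log2 change 0.75 ± 0.126 SE, adjusted p = 0.003). Of the 7 other genes of glycine metabolism and transport, 2 were called higher and 2 lower, against 30.2% and 16.7% of all genes tested. Their median log2 change was -0.00017. The lower ones were Shmt1 (-0.40, adjusted p = 0.0242) and Shmt2 (-0.36, adjusted p = 0.00193), the hydroxymethyltransferases that interconvert serine and glycine.

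The glutamate transporters moved in opposite directions in EED-cKO forebrain. Slc17a6 read 85.4 and 85.5 RPKM in EED-cKO forebrain, against 38.0 and 29.4 RPKM in wt E15.5 forebrain. Both EED-cKO libraries lay far above both wt libraries, and the ratio of means was 2.54 (log2 change 1.33 ± 0.112 SE, adjusted p = 0.000213). Slc17a7 read 5.9 and 6.8 RPKM in EED-cKO forebrain, against 27.8 and 29.6 RPKM in wt E15.5 forebrain. Here both EED-cKO libraries lay below, at a ratio of means of 0.221 (log2 change -2.02 ± 0.117 SE, adjusted p = 6.3e-05). Calls lower by at least 1 on the log2 scale, as Slc17a7 was, made up 1.14% of all genes tested, and calls higher by at least 1, as Slc17a6 was, made up 6.58%. The row order decides both values: with the deposited order Slc17a6 had a log2 change of 0.23 (adjusted p = 0.0638) and Slc17a7 of 0.28 (adjusted p = 0.361).

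Within the pair, Slc17a6 made up 93.5% and 92.6% of the summed RPKM in EED-cKO forebrain, against 57.8% and 49.8% in wt E15.5 forebrain. In wt spinal cord it made up 97.4% and 98.0%, against 65.1% and 67.7% in wt E13.5 forebrain. VGLUT2 thus made up nearly all of the pair in EED-cKO forebrain and wt spinal cord, with no overlap with wt forebrain in either comparison. The balance of inhibitory to excitatory vesicular transporters moved less: Slc32a1 made up 52.5% and 50.6% of the sum of Slc32a1, Slc17a6 and Slc17a7 in EED-cKO forebrain, against 47.4% and 46.1% in wt E15.5 forebrain. In wt spinal cord that share was 40.3% and 40.8%, within the 40.0% and 41.6% of wt E13.5 forebrain.

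**Figure D2:**
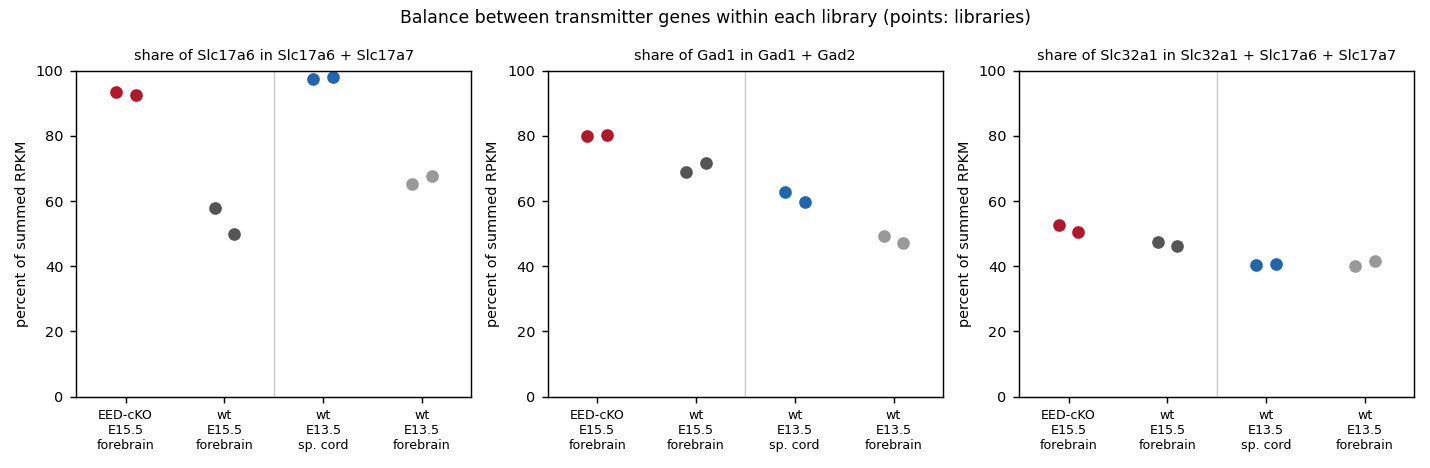
Percent of summed RPKM within each library (axes 0 to 100) for Slc17a6 among both VGLUT genes, Gad1 among both decarboxylases, and Slc32a1 among the 3 vesicular transporters, with a point per library. The share of Slc17a6 is 92.6% to 98.0% in EED-cKO forebrain and wt spinal cord and at 49.8% to 67.7% in wt forebrain.

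Of the 15 other genes of glutamate metabolism and transport, 14 were tested, of which 6 were called higher and 8 were not called in EED-cKO forebrain, near the 46.9% of all genes tested that were called. Gls2 is among the 6, at 1.0 and 1.5 RPKM in EED-cKO forebrain, against 0.5 RPKM in both wt E15.5 libraries. It passed the filter only through EED-cKO forebrain, so nothing is read from its call. Slc1a2, the glial glutamate transporter GLT-1, read 28.8 and 32.0 RPKM in EED-cKO forebrain, against 10.5 and 6.9 RPKM in wt E15.5 forebrain (log2 change 1.72 ± 0.169 SE, adjusted p = 0.000361). Slc1a6 and the glial Slc1a3 (GLAST) rose by 0.99 and 0.98 on the log2 scale. The list's median log2 change was 0.21, against 0.076 over all genes tested, and it was 0.055 after median ratio scaling, which left 5 called higher. Slc17a8 (VGLUT3), the remaining member of the vesicular family, read 0.8 and 1.3 RPKM in EED-cKO forebrain, against 0.8 and 0.3 RPKM in wt E15.5 forebrain, and did not pass the filter.

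Of the 3 cholinergic genes, both transporters were called higher in EED-cKO forebrain at low levels and Chat was not called. Slc18a3 read 2.6 RPKM in both EED-cKO libraries, against 1.2 and 1.0 RPKM in wt E15.5 forebrain (ratio of means 2.36, log2 change 0.78 ± 0.0859 SE, adjusted p = 0.000552). Slc5a7 read 1.9 and 2.0 RPKM in EED-cKO forebrain, against 0.8 and 0.4 RPKM in wt E15.5 forebrain (ratio of means 3.25, log2 change 0.89 ± 0.133 SE, adjusted p = 0.00179). Neither overlapped between the groups. After quantile normalization the log2 change was 0.44 for Slc18a3 (adjusted p = 0.00492) and 0.57 for Slc5a7 (adjusted p = 0.00664). Chat read 0.4 and 0.2 RPKM in EED-cKO forebrain, against 0.1 RPKM in both wt E15.5 libraries, which is a few steps of the table's rounding (log2 change 0.24 ± 0.0936 SE, adjusted p = 0.0752). Its change was called with a pseudocount of 0.1 (adjusted p = 0.0239) or 0.5 (adjusted p = 0.0499) and without EED-cKO replicate 2 (adjusted p = 0.0216), and it turned to -0.019 after quantile normalization. Slc18a3 (chromosome 14, 32462438 to 32464850, minus strand) lies wholly within Chat (chromosome 14, 32408203 to 32465989, minus strand), an arrangement known as the cholinergic gene locus, so reads over its 2413 bases may belong to either gene. Slc5a7 is on chromosome 17, at 54273590 to 54299034 on the minus strand.

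Of the 7 other genes of acetylcholine breakdown and cholinergic vesicles, 6 were tested. In EED-cKO forebrain 3 were called higher and 1 lower, against 30.2% and 16.7% of all genes tested. Ache, the esterase that breaks acetylcholine down, read 30.1 and 31.3 RPKM in EED-cKO forebrain, against 12.1 and 10.4 RPKM in wt E15.5 forebrain (log2 change 1.37 ± 0.12 SE, adjusted p = 0.00024). Slc10a4, a transporter-like protein of cholinergic and monoaminergic vesicles, read 18.0 and 16.5 RPKM in EED-cKO forebrain, against 11 and 10.2 RPKM in wt E15.5 forebrain (log2 change 0.65 ± 0.0968 SE, adjusted p = 0.00178). Bche, the related butyrylcholinesterase, rose by 0.80 on the log2 scale. The list's median log2 change was 0.42, against 0.20 after quantile normalization, 0.29 after median ratio scaling and 0.28 after scaling to neuronal genes. Without EED-cKO replicate 2, 2 of these genes were called higher.

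Th was lower in EED-cKO forebrain, by a margin close to the threshold. It read 2.8 and 3.4 RPKM in EED-cKO forebrain, against 5.2 and 4.4 RPKM in wt E15.5 forebrain, without overlap (ratio of means 0.646, log2 change -0.50 ± 0.166 SE, adjusted p = 0.0427). Leaving out either of the EED-cKO, wt E15.5 forebrain or wt E13.5 forebrain libraries ended the call, and over all libraries left out in turn the adjusted p ran from 0.0244 to 0.213. The call was also lost with the replicate number as a block (adjusted p = 0.0566), without a filter on low values (adjusted p = 0.153), with only the 4 libraries compared (adjusted p = 0.0717) and in the deposited row order (adjusted p = 0.051). After quantile normalization the log2 change was -0.86 (adjusted p = 0.0041). The gene is on chromosome 7, at 142892752 to 142931128 on the minus strand. Slc18a2, the vesicular monoamine transporter VMAT2, was lower too, at 2.3 and 2.5 RPKM in EED-cKO forebrain, against 8.7 and 7.0 RPKM in wt E15.5 forebrain (log2 change -1.37 ± 0.111 SE, adjusted p = 0.000181). Ddc, the decarboxylase that follows tyrosine hydroxylase, went the other way, at 7.1 and 9.5 RPKM in EED-cKO forebrain, against 5.4 and 5.5 RPKM in wt E15.5 forebrain (log2 change 0.52 ± 0.127 SE, adjusted p = 0.0144). The call of Ddc was lost after quantile normalization (adjusted p = 0.196) and after scaling to neuronal genes (adjusted p = 0.0857).

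Dbh, the enzyme of noradrenaline synthesis, was listed at 0 in every library, and Slc6a3, the dopamine transporter, read 0.5 and 1.6 RPKM in EED-cKO forebrain, against 1.7 and 0.8 RPKM in wt E15.5 forebrain (adjusted p = 0.669). Of the 19 other monoamine genes, 14 were tested, and 5 were called higher and 1 lower. That is near the 46.9% of all genes tested that were called in either direction. Under the other scalings 3 to 5 were called higher and 2 to 3 lower. The median log2 change was 0.073, against 0.076 over all genes tested. Pnmt, which turns noradrenaline into adrenaline, read 3.2 and 2.9 RPKM in EED-cKO forebrain, against 0.9 and 0.8 RPKM in wt E15.5 forebrain. It is among the 5 called higher, but it passed the filter only through EED-cKO forebrain, so nothing is read from its call. Maob, a monoamine oxidase, rose by 0.79 on the log2 scale.

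**Figure D3:**
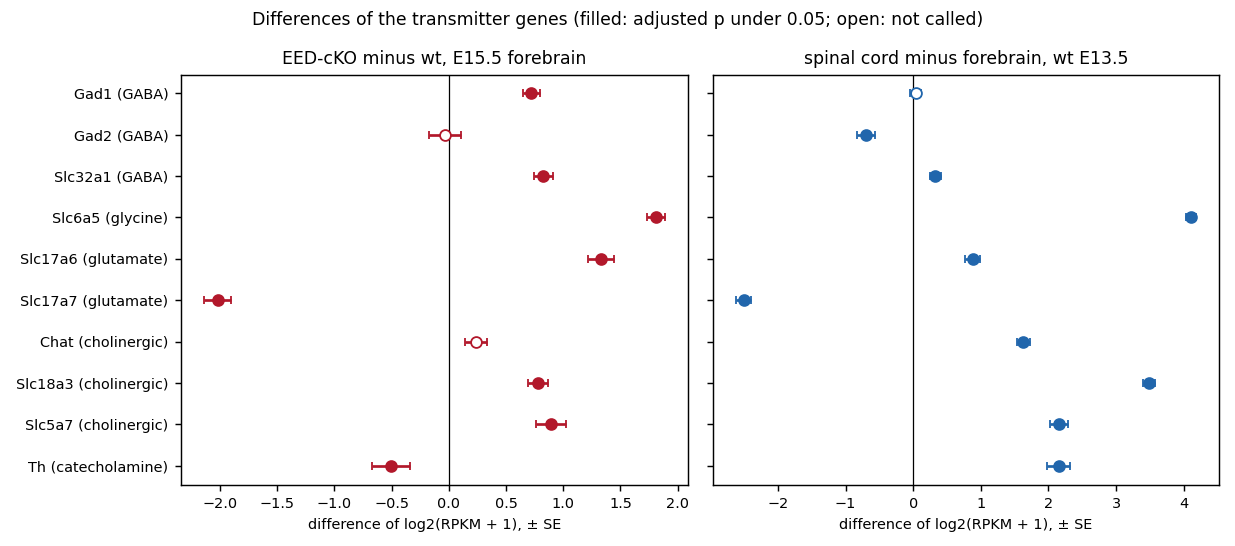
Difference of group means on the log2(RPKM + 1) scale for each gene, with bars of 1 standard error and filled points for genes called at an adjusted p under 0.05, for EED-cKO against wt forebrain at E15.5 and for wt spinal cord against wt forebrain at E13.5. Slc17a7 lies at -2.02 and -2.51, and Th lies at -0.50 and 2.15; for Slc6a5, and for Chat in spinal cord, the second group is at 0 and the position depends on the pseudocount.

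The wt tissues were compared next, to show how the same genes differ between spinal cord and forebrain at E13.5. All 10 members were tested, 7 were called higher and 2 lower in spinal cord, against 21.8% and 23.9% of all genes tested, or 45.7% in either direction. The higher members were Slc32a1, Slc6a5, Slc17a6, Chat, Slc18a3, Slc5a7 and Th, and the lower ones Gad2 and Slc17a7. Chat passed the filter only through spinal cord, so nothing is read from its call. The 21.8% and 23.9% of all genes tested also stand beside the list counts in spinal cord below. Spinal cord and forebrain values did not overlap for 9 members, against 76.3% of all genes tested, and the members' median log2 change was 1.26, against 0.00 over all genes. Neuronal genes as a whole were higher in spinal cord, with 24 of 25 called higher and a median log2 change of 0.96. When libraries were scaled to those 25 genes, which lowered the median of all genes by 0.98, 5.3% of all calls were higher, against 47.7% before. On that scale Slc17a6 had a log2 change of -0.23 (adjusted p = 0.057), Slc32a1 of -0.79 (adjusted p = 3.79e-05) and Gad1 of -1.08 (adjusted p = 8.53e-06). The pathway lists described below moved with them: 3 GABA genes were then called higher and 3 lower, 2 glutamate genes higher and 11 lower, 2 acetylcholine genes higher and 2 lower, and 1 monoamine gene higher and 11 lower.

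Between the E13.5 tissues, Gad1 was not called, Gad2 was lower and Slc32a1 was higher in spinal cord. Gad1 read 21.0 and 21.7 RPKM in wt spinal cord, against 20.5 and 21.1 RPKM in wt E13.5 forebrain, with overlap (log2 change 0.036 ± 0.0771 SE, adjusted p = 0.746). Gad2 read 12.4 and 14.6 RPKM in wt spinal cord, against 21.2 and 23.8 RPKM in wt E13.5 forebrain, so both spinal cord libraries were lower (ratio of means 0.6, log2 change -0.70 ± 0.138 SE, adjusted p = 0.00557). Slc32a1 read 23.4 and 24.5 RPKM in wt spinal cord, against 19.3 and 18.5 RPKM in wt E13.5 forebrain (log2 change 0.33 ± 0.0857 SE, adjusted p = 0.0183). That call was lost when any of the 4 E13.5 libraries was left out (adjusted p over all libraries left out in turn, 0.00464 to 0.104). Gad1 made up 62.9% and 59.8% of the decarboxylase sum in wt spinal cord, against 49.2% and 47.0% in wt E13.5 forebrain. Of the 7 other GABA genes, 4 were called higher and 3 were not called in spinal cord. The largest change was that of Slc6a11 at 18.3 and 18.0 RPKM in wt spinal cord, against 2.1 and 1.6 RPKM in wt E13.5 forebrain.

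Slc6a5 was detected in spinal cord, at 15.9 and 16.7 RPKM in wt spinal cord, against 0 and 0 RPKM in wt E13.5 forebrain (adjusted p = 1.88e-07). Slc6a9 read 12.8 and 12.6 RPKM in wt spinal cord, against 4.5 and 4.4 RPKM in wt E13.5 forebrain (log2 change 1.33 ± 0.126 SE, adjusted p = 0.000197). Of the 7 other glycine genes, 2 were called higher and 3 lower. Gldc, a subunit of the glycine cleavage system, was among the lower ones, at 5.1 and 6.2 RPKM in wt spinal cord, against 20.4 and 23.7 RPKM in wt E13.5 forebrain.

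Slc17a6 read 33.7 and 34.9 RPKM in wt spinal cord, against 18.8 and 17.6 RPKM in wt E13.5 forebrain (ratio of means 1.88, log2 change 0.88 ± 0.112 SE, adjusted p = 0.000749). Slc17a7 read 0.9 and 0.7 RPKM in wt spinal cord, against 10.1 and 8.4 RPKM in wt E13.5 forebrain (ratio of means 0.0865, log2 change -2.51 ± 0.117 SE, adjusted p = 1.07e-05). Neither overlapped between the tissues. Of the 14 tested other glutamate genes, 7 were called higher and 1, the neutral amino acid transporter Slc1a5, was called lower in spinal cord. Slc1a1, the neuronal glutamate transporter EAAT3, read 10.5 and 10 RPKM in wt spinal cord, against 3.2 and 2.4 RPKM in wt E13.5 forebrain (log2 change 1.57 ± 0.122 SE, adjusted p = 7.89e-05).

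Of the cholinergic genes, Slc18a3 and Slc5a7 were called higher in spinal cord, and Chat read higher. Slc18a3 read 11.6 and 11.2 RPKM in wt spinal cord, against 0.1 RPKM in both wt E13.5 forebrain libraries (log2 change 3.49 ± 0.0859 SE, adjusted p = 6.03e-07). Slc5a7 read 5.1 and 5.8 RPKM in wt spinal cord, against 0.5 and 0.4 RPKM in wt E13.5 forebrain (ratio of means 12.1, log2 change 2.15 ± 0.133 SE, adjusted p = 2.96e-05). Chat read 2.0 and 2.2 RPKM in wt spinal cord and was listed at 0 in both wt E13.5 forebrain libraries. It passed the filter only through spinal cord, so nothing is read from its call. Ache was higher as well, at 13.5 and 12.1 RPKM in wt spinal cord, against 2.4 and 1.8 RPKM in wt E13.5 forebrain, and 4 of the 6 tested genes of its list were called higher and 1 lower.

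Th read 25.6 and 18.3 RPKM in wt spinal cord, against 3.9 and 4.3 RPKM in wt E13.5 forebrain (ratio of means 5.35, log2 change 2.15 ± 0.166 SE, adjusted p = 7.59e-05). The monoamine genes Slc18a2 and Ddc were lower: Slc18a2 read 1.8 RPKM in both wt spinal cord libraries, against 10.4 and 11.1 RPKM in wt E13.5 forebrain, and Ddc read 1.0 RPKM in both, against 3.3 and 3.2 RPKM. Of the 14 tested, 3 were called higher and 5 lower. Markers of sensory and sympathetic ganglia summed to 719.5 and 549.9 RPKM in wt spinal cord, against 10.3 and 8.4 RPKM in wt E13.5 forebrain, and 7 of the 8 tested were called higher. The sensory neuron gene Scn10a (12.7 and 7.6 RPKM) was, like Th, higher in spinal cord replicate 1 than in replicate 2, while the noradrenergic markers Dbh and Hand2 were at 0 in both. Markers of peripheral glia summed to 86.3 and 62.3 RPKM in wt spinal cord, against 9.3 and 8.9 RPKM in wt E13.5 forebrain. The part of ganglia in the Th value was not tested.

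The comparisons share no library, but share the estimate of the spread. Of the 10 members, 7 were called in both, 6 of them in the same direction. Slc32a1, Slc6a5, Slc17a6, Slc18a3 and Slc5a7 were higher, and Slc17a7 was lower, in EED-cKO forebrain and in wt spinal cord alike, and Th was lower in EED-cKO forebrain and higher in wt spinal cord. On the scale of neuronal genes, Slc32a1 and Slc17a6 turned in sign in wt spinal cord. Over all genes tested, 4388 were called in both comparisons, 78.2% of them in the same direction. Within a group, the genes were also ordered by mean RPKM. Slc17a7 ranked below Gad2 in EED-cKO forebrain and last in wt spinal cord. In wt E15.5 forebrain Slc17a7 overlapped Slc17a6 in level, as Slc32a1 overlapped Gad1. In EED-cKO forebrain no neighbours in the order overlapped, with Slc32a1 first at a mean of 97.8 ± 4.6 RPKM (SD, n = 2), then Slc17a6 at 85.5 ± 0.0707 RPKM and Gad1 at 81.4 ± 2.83 RPKM. In wt spinal cord Slc17a6 ranked first at 34.3 ± 0.849 RPKM (SD, n = 2), and Slc32a1, Th and Gad1 followed with overlapping values.

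Transcription factors known to act in neurons of each transmitter class were described by list, with counts and medians. Over all genes tested, 30.2% were called higher and 16.7% lower in EED-cKO forebrain, and 21.8% and 23.9% in wt spinal cord. Of 22 tested transcription factors of GABA and glycine neurons, 11 were called higher and 9 lower in EED-cKO forebrain, with a median log2 change of 0.51, and 7 higher and 11 lower in wt spinal cord. Pax2, a factor of spinal and hindbrain inhibitory neurons, read 20.0 and 16.8 RPKM in EED-cKO forebrain, against 0 and 0.1 RPKM in wt E15.5 forebrain, and 46.2 and 48.0 RPKM in wt spinal cord, against 0.2 and 0.3 RPKM in wt E13.5 forebrain. Tal1, which with Gata3 acts in midbrain, hindbrain and spinal GABA neurons, read 55.7 and 49.8 RPKM in EED-cKO forebrain, against 3.3 and 1.3 RPKM in wt E15.5 forebrain (log2 change 4.09 ± 0.269 SE, adjusted p = 8.87e-05). Dlx2, a factor of forebrain GABA neurons, read 22.1 and 16.0 RPKM in EED-cKO forebrain, against 57.6 and 53.0 RPKM in wt E15.5 forebrain (log2 change -1.51 ± 0.138 SE, adjusted p = 0.000282). Nkx2-1, another factor of forebrain GABA neurons, was called higher, at 38.3 and 29.4 RPKM in EED-cKO forebrain, against 19.4 and 19.2 RPKM in wt E15.5 forebrain (log2 change 0.77 ± 0.127 SE, adjusted p = 0.00288).

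Of 21 tested factors of glutamate neurons, 10 were called higher and 11 lower in EED-cKO forebrain, with a median log2 change of -0.50, and 7 higher and 13 lower in wt spinal cord. Neurod6, a factor of cortical and hippocampal pyramidal neurons, read 14.6 and 12.8 RPKM in EED-cKO forebrain, against 350 and 399 RPKM in wt E15.5 forebrain (log2 change -4.67 ± 0.138 SE, adjusted p = 4.17e-06). Tlx3, a factor of excitatory dorsal horn neurons, read 7.0 and 6.3 RPKM in EED-cKO forebrain, against 0.1 RPKM in both wt E15.5 libraries (log2 change 2.80 ± 0.0994 SE, adjusted p = 8.44e-06). In wt spinal cord Tlx3 read 69.7 and 60.7 RPKM, against 0.1 RPKM in both wt E13.5 forebrain libraries.

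Of 11 tested factors of cholinergic neurons, 6 were called higher and 1 lower in EED-cKO forebrain (6 and 3 under each of the other scalings), with a median log2 change of 1.13, and 6 higher and 3 lower in wt spinal cord. The motor neuron factor Mnx1 read 6.3 and 5.2 RPKM in EED-cKO forebrain, against 0 and 0 RPKM in wt E15.5 forebrain (adjusted p = 1.45e-05), and 7.3 and 6.3 RPKM in wt spinal cord, against 0 and 0 RPKM in wt E13.5 forebrain. Lhx8, a factor of forebrain cholinergic neurons, read 13.9 and 11.6 RPKM in EED-cKO forebrain, against 12.1 and 14 RPKM in wt E15.5 forebrain (log2 change -0.033 ± 0.128 SE, adjusted p = 0.86). Chat read 0.4 and 0.2 RPKM in EED-cKO forebrain and 2.0 and 2.2 RPKM in wt spinal cord. The E15.5 columns have the larger sums, so an equal RPKM there is a smaller share of its column. Levels of Mnx1 and Chat were therefore not compared between EED-cKO forebrain and wt spinal cord.

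Of 12 tested factors of catecholamine neurons, 9 were called higher and 2 lower in EED-cKO forebrain, with a median log2 change of 2.28, while Th was lower. Hand2, a factor of sympathetic neurons and also of limb and heart mesenchyme, read 22.8 RPKM in both EED-cKO libraries and was listed at 0 in the other 6 libraries. En2, a factor of the midbrain, read 11.7 and 11.5 RPKM in EED-cKO forebrain, against 0.9 and 0.3 RPKM in wt E15.5 forebrain. Both are among the 9 called higher and enter the median of 2.28. They passed the filter only through EED-cKO forebrain, so nothing is read from their calls. In wt spinal cord 4 were called higher and 2 lower, with Lmx1b at 34.2 and 35.8 RPKM in wt spinal cord, against 2.3 and 0.7 RPKM in wt E13.5 forebrain.

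**Figure D4:**
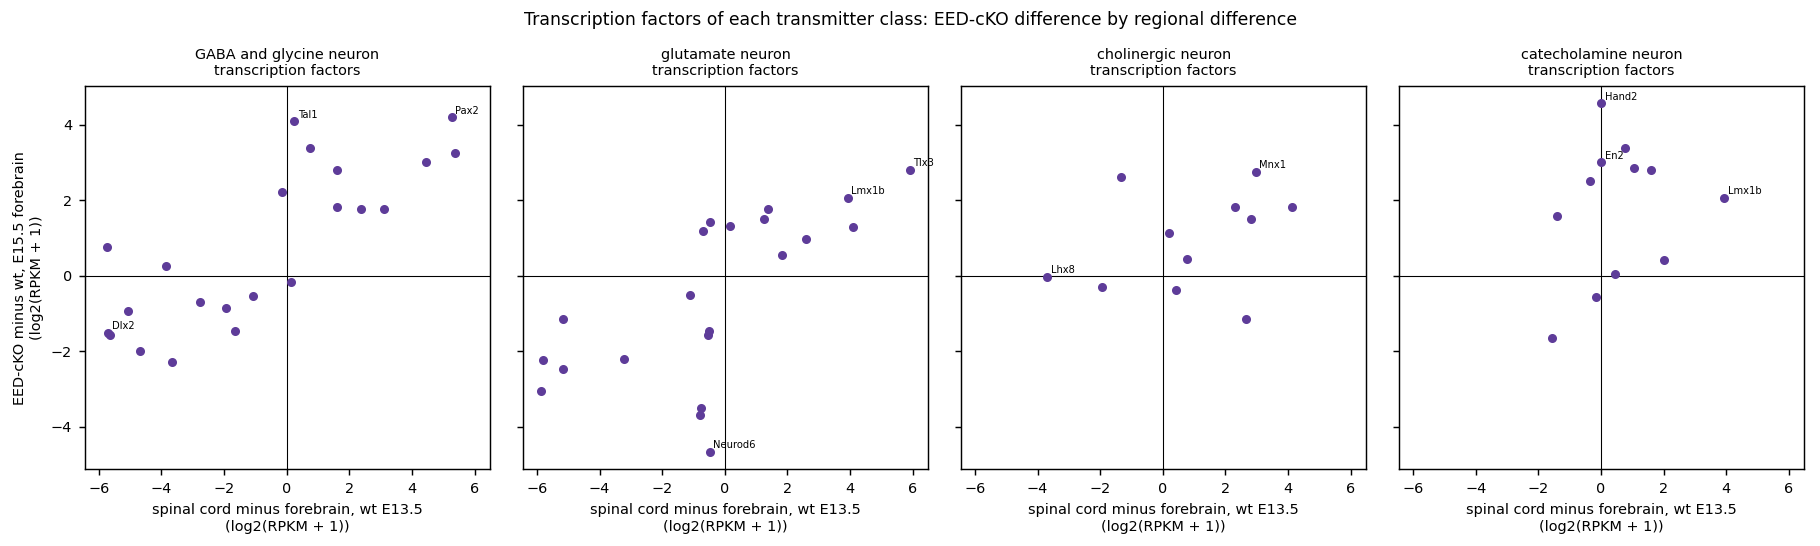
Each point is a tested transcription factor, 1 panel per transmitter class, with its difference of log2(RPKM + 1) between wt E13.5 spinal cord and forebrain on the horizontal axis and between EED-cKO and wt E15.5 forebrain on the vertical axis, and names stand beside most of the factors given in the text. Pax2 and Tlx3 lie high in both comparisons, Neurod6 lies lowest in EED-cKO forebrain at -4.67, and Hand2, which is listed at 0 in all wt libraries, lies on the vertical line at 0.

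**Figure D5:**
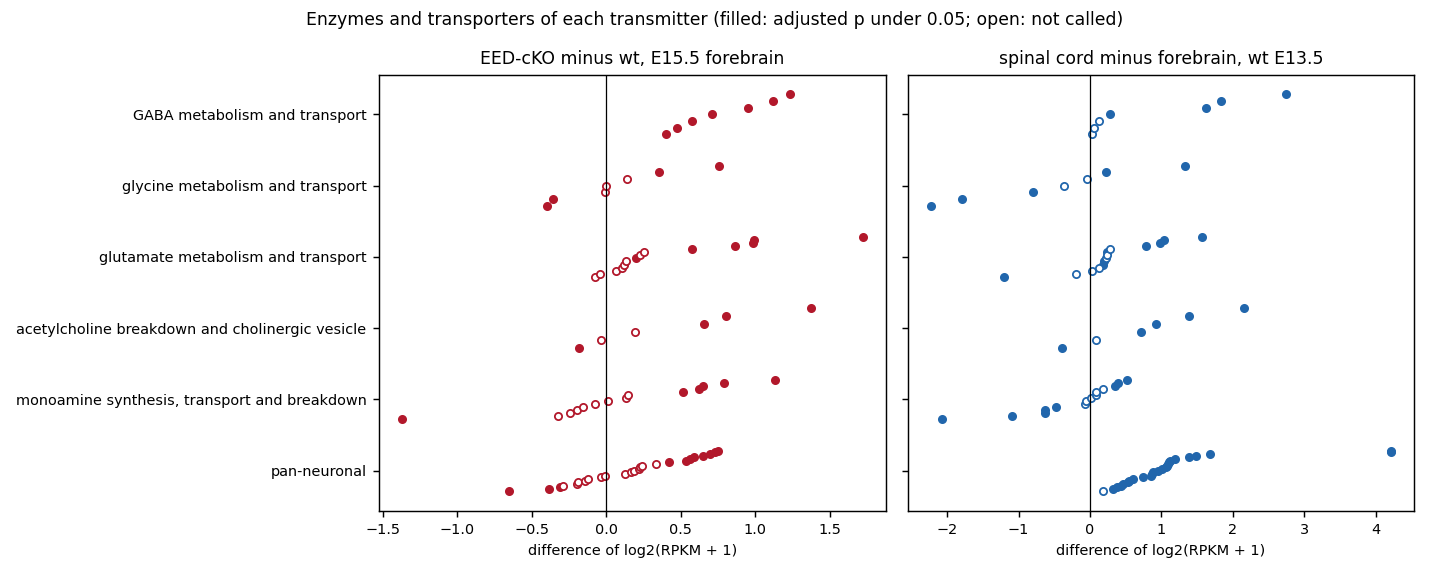
Each point is a tested gene of the pathways around the 10 identity genes, or a general neuronal gene (lowest row), placed by its difference of log2(RPKM + 1) in EED-cKO against wt E15.5 forebrain (left) and wt E13.5 spinal cord against forebrain (right, on a wider axis), filled where called. All 7 GABA genes lie above 0 in EED-cKO forebrain, and Slc18a2 is the lowest monoamine gene in both, at -1.37 and -2.07.

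General neuronal genes were read as well. In EED-cKO forebrain 8 of the 25 were called higher and 3 lower, near the 30.2% and 16.7% of all genes tested, with a median log2 change of 0.19. The counts were 9 higher and 1 lower after quantile normalization (median 0.28), 6 and 5 after median ratio scaling (median 0.028) and 7 and 4 after scaling to these genes themselves (median 0.022). Without EED-cKO replicate 2 they were 5 and 1. Snap25, a synaptic fusion protein, read 209 and 196 RPKM in EED-cKO forebrain, against 128 and 116 RPKM in wt E15.5 forebrain. The lower ones, named after their values were seen, were Tubb3, Stmn2 and Nsg2.

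The wt forebrain levels at the later and earlier age are given side by side without a test, because the columns differ in sum. Slc17a7 read 27.8 and 29.6 RPKM in wt E15.5 forebrain, against 10.1 and 8.4 RPKM in wt E13.5 forebrain, and Gad2 read 23.7 and 18.0 RPKM in wt E15.5 forebrain, against 21.2 and 23.8 RPKM in wt E13.5 forebrain. Gad1 read 52.5 and 45.7 RPKM in wt E15.5 forebrain, against 20.5 and 21.1 RPKM in wt E13.5 forebrain. Within libraries, where sums cancel, the share of Gad1 among the decarboxylases was 68.9% and 71.7% in wt E15.5 forebrain, against 49.2% and 47.0% in wt E13.5 forebrain. The share of Slc17a6 among the VGLUT genes was 57.8% and 49.8% in wt E15.5 forebrain, against 65.1% and 67.7% in wt E13.5 forebrain.

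The genes with the most similar pattern to a member were sought over the 8 libraries by Pearson's r on log2(RPKM + 1), among 6495 or 6496 genes that varied. These are descriptions over points that share age, tissue and column scale. Slc6a5 was most like Tlx3 (r = 0.999), Skor2 (0.999) and Hoxa6 (0.998), and Chat most like Hoxb9 (0.994), a gene of the posterior body axis. Slc17a7 was most like Vrk1 (0.993), Nog (0.992) and Gtf2e2 (0.989), and Slc17a6 most like Tmcc3 (0.999), Pltp (0.995) and Astn2 (0.995). Slc18a3 was most like Syt2 (0.995) and Pou4f1 (0.993), a sensory neuron factor. Among the genes most like Th were Dgkh (0.985) and Scn10a (0.984), a sodium channel of pain-sensing neurons.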

How the data were processed

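RNA of dissected forebrain and spinal cord was sequenced as unstranded single-end reads, per the labels' protocols. The authors deposited RPKM values, 1 column per library, rounded to 0.1. The builds mm9 and GRCm38 are named per the submitters' processing notes, while the aligner and counter are not given in the sources used here. No counts are given, so depth is unknown, and counting intervals could not be given.

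The names of the E15.5 columns were put in alphabetical order (case and hyphens ignored), a choice made after seeing the data. Where a symbol occurred more than once (16 rows), the row of highest mean stayed in. A gene was tested if 2 or more libraries reached 1 RPKM, on log2(RPKM + 1), a pseudocount of 1, with all 8 libraries and 4 group means in limma 3.58.1 (eBayes with trend, two-sided, 4 residual degrees of freedom) under R 4.3.3, which was tested on simulated data. P-values were adjusted by Benjamini-Hochberg over all genes tested. Lists were described by counts and medians, with no set test. Gene positions are from GENCODE on GRCm38, promoters from RefSeq on GRCm38.p6. Figures were made with Python 3.11.15 and matplotlib 3.10.9.

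The members and all lists were chosen with earlier results of these data known. The text names all members, the Eed check, up to 3 genes most like a member in pattern, up to 3 called genes with the largest changes per list and comparison, and a fixed set of pathway neighbours. Alternatives were the deposited order, pseudocounts of 0.1 and 0.5, other filters, other scalings, a replicate block, no trend, only the 4 libraries compared, and each library left out. Knockout spinal cord, which the design text mentions, is not analysed here. The labels do not say that replicate numbers pair samples. Some genes that this rule would name are not reported here.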

Additional observations from a re-analysis of the deposited data

How the results depend on the processing

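In EED-cKO against wt E15.5 forebrain, the number of members called lower was 2, against 0 with the deposited row order (1 at an unadjusted p under 0.05 in limma), 1 without a filter, 1 with only the 4 libraries compared and 1 to 2 with a library left out. All genes called numbered 7987, against 4777 with only the 4 libraries and 4922 to 9606 with a library left out, the lowest without EED-cKO replicate 2. Without that library 7 members were called higher. Slc17a7 turned to 0.28 with the deposited order, Chat to -0.019 after quantile normalization, and Gad2 ran from -0.22 to 0.15 with a library left out. For wt spinal cord against wt E13.5 forebrain, scaling to neuronal genes, chosen after seeing the data, gave 4 members called lower and 14393 genes called, with Gad1 at -1.08, Slc32a1 at -0.79 and Slc17a6 at -0.23. With a library left out, 5205 to 9320 genes were called. The deposited order changes which values carry a name, and fewer libraries leave fewer degrees of freedom; the cause of the other changes was not tested. Direction and side of the threshold of single genes were kept in 362 recomputed values, while 16 were weaker, 3 newly past it and 7 turned in sign.

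With the replicate number as a block, 1 member was called lower, Th having lost its call, and 6 higher in EED-cKO forebrain, among 7608 genes called, and 7466 genes were called in spinal cord. The numbers mark no shared source in the labels. Deviations of same-numbered libraries correlated at -0.124 in the E15.5 pair of groups and 0.211 in the E13.5 pair. With the EED-cKO numbers crossed, also chosen after seeing the data, 8013 genes were called. Depth is unknown, and rounding to 0.1 RPKM limits Chat and other low genes.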
